A study of Mus musculus with 100 samples.

Results

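The sarcomere and calcium handling genes of fast skeletal muscle were followed through knee joints of MRL/MpJ, C57BL/6 (substrain C57BL/6J) and STR/ort mice. The 35 genes were chosen by name, and all 35 were found among the 17310 genes of the count table. Gene expression was measured by RNA-seq of poly(A)+ RNA from whole joints. Mice were 10 weeks old at injury or, in the 0-day groups, at collection. The right knee of each injured mouse was loaded in compression, and the injured joint and the uninjured contralateral joint were both taken 1-day, 1-week or 2-weeks later. Uninjured joints of the 0-day groups were taken before any loading. The resulting 100 libraries fell into 21 groups, with 4 libraries in each 0-day group and in the 1-week contralateral groups of MRL/MpJ and STR/ort, and 5 in each other group. The groups differ in inbred strain, joint and time, and the labels give no other treatment. Joints were trimmed at the femoral and tibial edges with traces of soft tissue left on, and the amount of muscle kept on each joint is not given in the sources used here. The 2-weeks libraries carry a batch label of their own, and time and batch cannot be told apart there.

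In a fast fibre, the thick filament of myosin pulls on a thin filament of actin, and the troponin complex and tropomyosin on the thin filament open when calcium is released from the sarcoplasmic reticulum through the ryanodine receptor. Myosin heavy chains set the fibre type: Myh4 marks the fastest fibres (IIb), Myh1 the IIx fibres and Myh2 the IIa fibres, while Myh7 marks slow fibres. The quadriceps, hamstring and calf muscles attach around the knee, so joint tissue prepared from it can carry fibres with it.

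The name of the set was checked against genes of slow and cardiac muscle. Levels are given in CPM, the count scaled to the total of its library after TMM adjustment, and levels of different genes are compared per kilobase of exon. Myh4 had a median of 3792 CPM per kb over the 100 libraries, against 8.0 for Myh7, 1.30 for the cardiac myosin Myh6 and 0.599 for cardiac troponin I, Tnni3. Every member had a higher median level per length than these 3 check genes, as the plot of levels per length shows. In whole joints, fewer muscle fibres and less of these RNAs per fibre cannot be told apart.

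**Figure D1:**
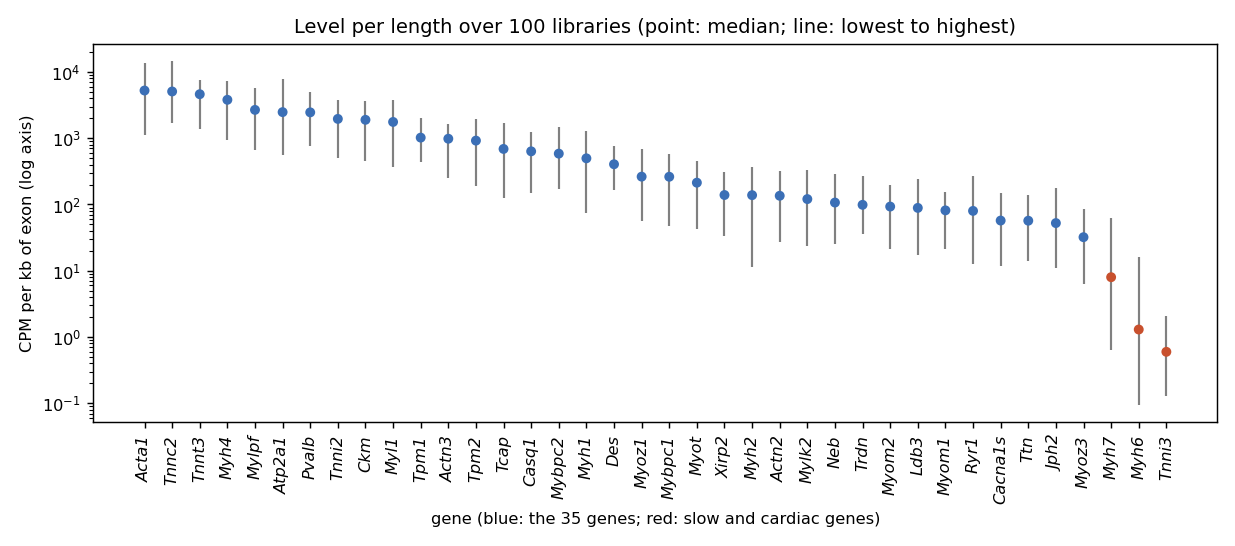
Level of each gene per kilobase of exon (CPM per kb, log axis) over 100 libraries, with points at the median and lines from the lowest to the highest library. The 35 fast muscle genes (blue) run from Acta1 at 5235 down to Myoz3 at 32.1, above Myh7, Myh6 and Tnni3 (red).

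The promoters of 4 members are shown because myogenic factors of the MyoD family bind E-boxes (CANNTG) and MEF2 factors bind A/T-rich sites (searched loosely as CTA, any 4 bases, then TAG, and called MEF2-like here), and because the members were measured to move together. RefSeq promoters (GRCm38.p6) were listed for 24 of the 35 genes, as 27 windows from 250 bases before to 50 bases after a start. Searched on both strands, an E-box was in 21 of these 27 windows (77.8%), against 72.3% of all 32851 windows. The MEF2-like motif was in 5 of them (18.5%), of the genes Des, Ldb3, Ttn and Xirp2, against 3.69% of all windows. The 250 bases before the start are printed 5′ to 3′ on the gene's strand, with E-boxes and MEF2-like motifs in capitals. Positions are chr7:19410844-19411093, plus strand for Ckm (creatine kinase of muscle), chr8:123894776-123895025, minus strand for Acta1 (skeletal actin), chr11:67237562-67237811, plus strand for Myh4, and chr2:67445752-67446001, plus strand for Xirp2 (an actin-binding protein of the fibre ends). The first capitals of Xirp2 are 2 overlapping E-boxes, and its second capitals are the only MEF2-like motif in the 4 windows. A match describes letters only and is no evidence of binding.
Ckm: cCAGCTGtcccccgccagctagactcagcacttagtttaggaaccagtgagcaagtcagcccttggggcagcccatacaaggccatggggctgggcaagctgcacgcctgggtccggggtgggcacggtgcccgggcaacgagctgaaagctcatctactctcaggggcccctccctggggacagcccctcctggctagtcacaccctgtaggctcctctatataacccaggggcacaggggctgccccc
Acta1: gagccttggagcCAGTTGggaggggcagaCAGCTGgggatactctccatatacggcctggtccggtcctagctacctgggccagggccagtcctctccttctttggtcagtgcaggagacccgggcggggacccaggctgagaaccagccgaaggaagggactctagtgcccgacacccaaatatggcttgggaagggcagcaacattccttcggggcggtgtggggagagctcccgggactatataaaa
Myh4: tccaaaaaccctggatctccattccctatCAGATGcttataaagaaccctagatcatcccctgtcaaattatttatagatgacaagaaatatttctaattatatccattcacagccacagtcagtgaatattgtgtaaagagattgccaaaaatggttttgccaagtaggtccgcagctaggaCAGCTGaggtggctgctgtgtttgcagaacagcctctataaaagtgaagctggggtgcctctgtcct
Xirp2: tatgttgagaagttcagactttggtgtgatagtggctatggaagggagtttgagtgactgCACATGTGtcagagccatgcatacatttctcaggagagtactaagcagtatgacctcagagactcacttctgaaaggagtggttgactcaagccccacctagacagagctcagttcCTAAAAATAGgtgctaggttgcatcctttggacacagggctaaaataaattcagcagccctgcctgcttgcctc

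The 35 genes took a large and variable part of these joint libraries. Their counts made up between 2.98% (a STR/ort injured joint at 1-week) and 20.4% (a MRL/MpJ injured joint at 2-weeks) of a library. Myh4 alone had a median of 20.2% of the members' counts, and the leading 6 genes (Myh4, Acta1, the calcium pump Atp2a1, Tpm1, Tnnt3 and Ttn) had 54.6% together. Per kilobase, Acta1 was followed by Tnnc2 (troponin C, 5064 CPM per kb), Tnnt3 (troponin T, 4606) and Myh4. Myh1 had 497 CPM per kb and Myh2 had 138, both far below Myh4. Reads of the close paralogs Myh1, Myh2 and Myh4, neighbours on chromosome 11, could be split differently between strains, since the reads of all strains were aligned to a C57BL/6J genome.

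Members rose and fell together from library to library. Within groups, the SD of a member's log2 CPM had a median of 0.33 over the 35 genes, and the SD of its deviation from the mean of the other 34 was 0.10. In each of the 35 genes the deviation had the smaller SD. The tightest was Atp2a1, with a deviation SD of 0.06, and the loosest were Myh2 at 0.32, Myh1 at 0.28 and Mybpc1 (slow-type myosin binding protein C, which fast fibres also express) at 0.24. The mean log2 CPM of the 35 genes, called the muscle score here, therefore summarises most members, and it is given with no test.

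**Figure D2:**
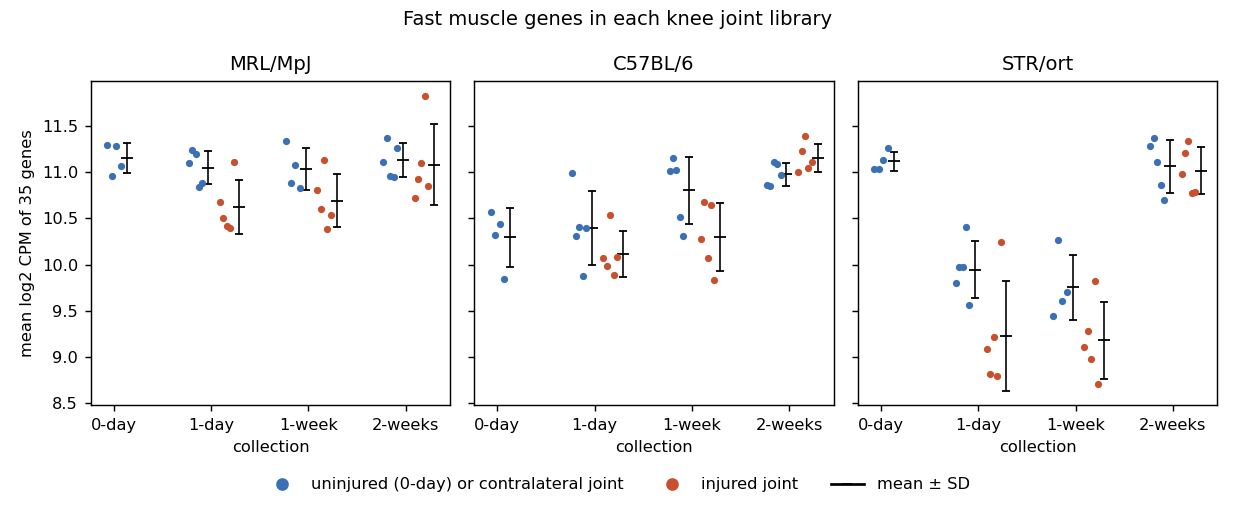
Mean log2 CPM of the 35 genes in each library (y axis) by strain and collection (x axis), with blue points for uninjured or contralateral joints, red points for injured joints and black bars for the mean ± SD. STR/ort joints start near MRL/MpJ joints at 0-day (11.11 ± 0.10 and 11.15 ± 0.16), lie lower at 1-day and 1-week under this TMM scaling (with 1 RUVg factor the contralateral medians of STR/ort against the other strains lay between -0.04 and 0.33), and lie near the other strains at 2-weeks.

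Before injury, C57BL/6 joints had less fast muscle RNA than the joints of both other strains. The muscle score was 10.57, 10.32, 10.43 and 9.84 in the 4 C57BL/6 libraries, 11.29, 10.96, 11.28 and 11.06 in MRL/MpJ and 11.03, 11.03, 11.13 and 11.25 in STR/ort. All 4 C57BL/6 values lay below all 8 others, and MRL/MpJ and STR/ort overlapped with each other. A gene was called at an adjusted p below 0.05 and a fold above 1.5 in edgeR's quasi-likelihood test. In C57BL/6 against MRL/MpJ, 30 of the 35 genes were called lower and 0 higher, where 6.26% of all genes were called lower, and the median log2 fold change was -0.82 against 0.01 over all genes. In STR/ort against C57BL/6, 28 were called higher and 0 lower, where 7.82% of all genes were called higher, with a median of 0.80 against -0.06. STR/ort against MRL/MpJ gave 2 calls, Myh1 (-0.66 ± 0.17 SE, adjusted p = 0.006) and Ryr1 (-0.85 ± 0.14 SE, adjusted p = 0.000138), both lower in STR/ort (1 call without MRL/MpJ replicate 1 or without STR/ort replicate 4), where 6.44% of all genes were called lower, and the median was 0.00. These 3 comparisons share their libraries pairwise. The study scaled its counts with RUVSeq on 25 housekeeping genes, with a number of factors not given in the sources used here. With 1 such factor (RUVg) added to the fit, both counts that involve C57BL/6 were 18 and the medians were -0.58 for C57BL/6 against MRL/MpJ and 0.62 for STR/ort against C57BL/6, in the same directions.

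The 3 largest differences between C57BL/6 and MRL/MpJ at 0-day were in Ryr1 (the calcium release channel of the sarcoplasmic reticulum), Des (desmin, the intermediate filament that ties Z-discs together, also made by smooth muscle) and Mylk2 (skeletal myosin light chain kinase). Ryr1 was at 1247, 1007, 1124 and 645 CPM in C57BL/6, at 2436, 2019, 2488 and 2124 in MRL/MpJ and at 1249.9, 1207, 1198 and 1351 in STR/ort. The MRL/MpJ libraries lay above all others, and the STR/ort libraries did not reach them (-1.13 ± 0.14 SE, adjusted p = 7.29e-06 for C57BL/6 against MRL/MpJ). Des was at 1402, 975, 1129 and 729 CPM in C57BL/6, 2444, 2174, 2489 and 2106 in MRL/MpJ and 1884, 2011, 2533 and 2764 in STR/ort (-1.08 ± 0.16 SE, adjusted p = 2.89e-05 for C57BL/6 against MRL/MpJ). Mylk2 was at 266, 230.5, 236 and 148 CPM in C57BL/6, 514, 423, 523 and 450.4 in MRL/MpJ and 453, 423, 335 and 384 in STR/ort (-1.08 ± 0.14 SE, adjusted p = 8.48e-06). In both genes the C57BL/6 libraries were the lowest 4, with no overlap, while MRL/MpJ and STR/ort overlapped.

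Every role held called genes at 0-day. Of the thick filament genes, 7 of 8 were called lower in C57BL/6 than in MRL/MpJ and 5 of 8 higher in STR/ort than in C57BL/6. Myh4 was at 21659, 17740.1, 17483 and 13716 CPM in C57BL/6, 34609, 31649, 37713 and 35422 in MRL/MpJ and 31850.4, 30239, 29141 and 31846 in STR/ort. Myh1 was the exception among the myosins, at 2537, 2760.2, 3150.5 and 1732 CPM in C57BL/6, 5881, 3746, 4752 and 4097 in MRL/MpJ and 2675, 2789.6, 3769 and 2451 in STR/ort, with STR/ort replicate 3 above all C57BL/6 libraries and the lowest of MRL/MpJ, and the rest of STR/ort within the range of C57BL/6 (0.16 ± 0.17 SE, adjusted p = 0.506 for STR/ort against C57BL/6). Of the 7 thin filament genes, 6 and 6 were called, with Tpm2 (beta-tropomyosin) uncalled in both, and of titin and the M-band genes Myom1 and Myom2, 2 and 2 of 3 were called. Of the 9 Z-disc and intermediate filament genes, 8 and 9 were called. Tcap, which caps titin at the Z-disc, differed most among them in STR/ort against C57BL/6 (1.2 ± 0.17 SE, adjusted p = 3.87e-05). Of the 7 calcium handling genes, 6 and 5 were called, led by Trdn (triadin, the anchor of calsequestrin to the release channel) in STR/ort against C57BL/6 (1.31 ± 0.18 SE, adjusted p = 2.33e-05). Ckm, which buffers ATP in the fibre, was at 5718, 4463, 4889 and 3297 CPM in C57BL/6, 8446, 7788, 9487 and 8169.5 in MRL/MpJ and 8226, 8112, 10249.9 and 10456 in STR/ort, with the C57BL/6 libraries below all others (-0.84 ± 0.14 SE, adjusted p = 0.000132 against MRL/MpJ).

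Marker lists of the other joint tissues moved beside the muscle genes at 0-day. All 9 of 9 fibroblast genes and 8 of 9 cartilage genes were called higher in C57BL/6 than in MRL/MpJ, and the summed fibroblast level was 18046 to 22764 CPM in C57BL/6, 8675 to 10441 in MRL/MpJ and 14737 to 18237 in STR/ort. Cartilage genes summed to 2767 to 7305, 2276 to 3862 and 3388 to 5623 CPM in the same order. Of 9 bone genes 4 were called higher in C57BL/6 than in MRL/MpJ (2 with 1 RUVg factor), with sums of 3268 to 4413 against 2250.5 to 2995 CPM, and of 8 erythroid genes 4 were called lower, with sums of 3524 to 4194 against 5859.5 to 6969 CPM, both without overlap. The regeneration and denervation list summed to 539.8 to 742 CPM in C57BL/6, 359 to 387 in MRL/MpJ and 368 to 418 in STR/ort, with C57BL/6 above the rest, although 4 of its 18 genes were called lower and 1 higher than in MRL/MpJ. Smooth muscle genes summed to 837 to 1031 CPM in C57BL/6, 1259 to 1534 in MRL/MpJ and 1289 to 1413 in STR/ort, with C57BL/6 below the rest. The part of these lists in the muscle difference, that of Des included, was not tested. STR/ort joints also held more slow muscle RNA, with 13 of 14 slow muscle genes called higher than in C57BL/6 and 12 of 14 higher than in MRL/MpJ, where the fast genes gave 2 lower calls and 0 higher calls.

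In contralateral joints at 1-day and 1-week after injury, STR/ort had the lowest mean muscle score under TMM scaling, an order that a housekeeping factor did not keep: with 1 RUVg factor the median of the 35 genes in STR/ort was 0.25 against C57BL/6 and 0.33 against MRL/MpJ at 1-day, and 0.00 and -0.04 at 1-week. At 1-day the muscle score was 9.8, 9.97, 9.97, 10.40 and 9.56 in STR/ort contralateral joints, 10.99, 10.30, 10.40, 9.87 and 10.39 in C57BL/6 and 11.09, 11.23, 11.19, 10.84 and 10.88 in MRL/MpJ. STR/ort lay below all MRL/MpJ libraries and overlapped with C57BL/6. At 1-week it was 9.44, 10.26, 9.60 and 9.70 in STR/ort, 11.01, 11.15, 11.02, 10.52 and 10.31 in C57BL/6 and 11.33, 10.88, 11.07 and 10.83 in MRL/MpJ. All 4 STR/ort libraries lay below all libraries of the other strains.

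At 1-week, 35 of 35 genes were called lower in contralateral joints of STR/ort against MRL/MpJ, where 10.7% of all genes were called lower, with a median log2 fold change of -1.13 against 0.01 over all genes. Against C57BL/6, 28 were called lower, where 9.12% of all genes were, with a median of -0.89 against 0.01. C57BL/6 against MRL/MpJ gave 0 calls in edgeR and 0 in DESeq2, with 5 members at an unadjusted p below 0.05, and 8.53% of all genes were called. With 1 RUVg factor, the counts of STR/ort against MRL/MpJ and against C57BL/6 were 4 each, all lower. At 1-day, STR/ort against MRL/MpJ gave 32 lower calls (where 9.54% of all genes were called lower), C57BL/6 against MRL/MpJ 14 (where 5.81% were), and STR/ort against C57BL/6 7 (where 4.74% were). The last count was 13 without C57BL/6 contralateral replicate 4 and 15 without STR/ort contralateral replicate 4. With 1 RUVg factor the 3 counts were 4 (all higher, the reverse direction), 6 (3 higher and 3 lower) and 1 (lower).

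The difference was uneven among members. In 1-week contralateral joints of STR/ort against C57BL/6, the largest log2 fold changes were in Tpm2 (-2.22 ± 0.23 SE, adjusted p = 5.56e-09), Myh1 (-2.08 ± 0.26 SE, adjusted p = 1.66e-07) and Myh2 (-2.03 ± 0.28 SE, adjusted p = 7.74e-07). Mybpc1 (-1.98) and Actn2 (-1.74), the alpha-actinin found in all fibre types, were next. Myh1 was at 701, 1085, 792 and 1208 CPM in STR/ort, 4271, 5548, 4640.3, 3199 and 2534 in C57BL/6 and 4870.1, 3792, 4110.1 and 4768 in MRL/MpJ, with STR/ort far below the rest. Myh2 was at 318, 462, 258 and 313 CPM in STR/ort, 1467, 1907, 1438, 1164 and 983 in C57BL/6 and 1655, 1427, 1484 and 1220.4 in MRL/MpJ, again with no overlap of STR/ort. The 4 lower calls with 1 RUVg factor were Tpm2 (-1.47, adjusted p = 0.000707), Myh1 (-1.21, adjusted p = 0.0127), Myh2 (-1.26, adjusted p = 0.0201) and Actn2 (-0.82, adjusted p = 0.0306), and Mybpc1 was not called (-0.87, adjusted p = 0.0679). Myh4, of the fastest fibres, had a smaller fold change and was at 11088, 24144, 11892 and 14068 CPM in STR/ort and 26369.5, 29277, 27384, 16862 and 16887 in C57BL/6, which overlapped (-0.60 ± 0.25 SE, adjusted p = 0.0532). Actn3, the alpha-actinin of fast fibres, was at 1389.9, 2870.3, 1729.5 and 1407 CPM in STR/ort and 3309, 2888, 3270.1, 2359.5 and 1953 in C57BL/6 (-0.56 ± 0.23 SE, adjusted p = 0.049). Pvalb, the calcium buffer of the fastest fibres, had a log2 fold change of -0.56 and was not called.

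Set against 0-day under TMM scaling, these genes fell in STR/ort. All uninjured libraries of 0-day, 1-day and 1-week, which share a batch label, were put in 1 fit, an analysis added after the data were seen. In STR/ort, all 35 genes were called lower in 1-day contralateral joints than at 0-day (median log2 fold change -1.09 against 0.08 over all genes, of which 6.94% were called lower), and all 35 at 1-week (median -1.23 against 0.08, 7.46% of all genes called lower). Both counts stayed at 35 when any 1 library was left out, and became 0 and 8 with 1 RUVg factor, with medians of -0.21 and -0.44. In MRL/MpJ, 0 genes were called at either time in edgeR or in DESeq2, with 4 members at an unadjusted p below 0.05 at 1-day and 0 at 1-week, where 0.0867% and 0% of all genes were called. In C57BL/6, 0 were called at 1-day, with 5 at an unadjusted p below 0.05 and 0 in DESeq2, where 0.0635% of all genes were called, and 8 were called higher at 1-week, where 1.05% of all genes were called higher. That count of 8 lay between 2 (without 0-day replicate 4 or 1-week contralateral replicate 2) and 16 (without 1-week contralateral replicate 5), and was 5 without 1-week replicate 1 or 3 and 13 without replicate 4. With 1 RUVg factor it was 3, with a median of 0.26. Fibroblast genes in C57BL/6 summed to 18046 to 22764 CPM at 0-day and 8193 to 11255 in 1-week contralateral joints. Bone genes summed to 3268 to 4413 and 2032 to 2862 CPM, and slow muscle genes to 1001 to 1105 and 1437 to 2543. None of these lists overlapped between the times, and their part in the rise was not tested.

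The difference between strains in this change was itself tested. For STR/ort against C57BL/6, 34 of 35 genes were called at 1-day and 35 of 35 at 1-week, all with a more negative change in STR/ort (medians -1.28 and -1.75, against 0.07 and 0.07 over all genes, of which 5.59% and 9.21% were called lower). C57BL/6 did not fall itself: its medians were 0.18 and 0.45, with all 35 members higher at 1-week than at 0-day (0.19 to 1.03). The differences thus hold the change of C57BL/6 as well as that of STR/ort. For STR/ort against MRL/MpJ the counts were 28 and 33, where 5.18% and 6.64% of all genes were called lower. For C57BL/6 against MRL/MpJ edgeR called 0 members at either time, with 8 and 19 at an unadjusted p below 0.05, where 0.0173% and 1.58% of all genes were called, and DESeq2 called 0 and 2. The 28 at 1-day became 18 without MRL/MpJ 0-day replicate 2 or without STR/ort 1-day contralateral replicate 5. Ckm is an example, at 8226, 8112, 10249.9 and 10456 CPM in STR/ort at 0-day, 3108, 3585, 3622, 5603 and 2725 in 1-day contralateral joints and 2672, 5232, 3229.9 and 2819.5 in 1-week contralateral joints (-1.38 ± 0.22 SE, adjusted p = 6e-06 for 1-week against 0-day). The 0-day libraries lay above all others, and the 2 later groups overlapped. Xirp2 was at 1742, 1803, 1639 and 1708 CPM at 0-day, 923, 937, 854, 1178 and 678 at 1-day and 644, 1197, 785 and 912 at 1-week (-0.93 ± 0.21 SE, adjusted p = 0.000641). Tpm1, the alpha-tropomyosin shared with other muscle types, was at 11770.2, 11844, 10274 and 12906 CPM at 0-day, 5658, 6478, 5929, 8674 and 5906.8 at 1-day and 4844, 8338, 4978 and 5594 at 1-week (-0.95 ± 0.19 SE, adjusted p = 0.00016), and in both genes the 0-day libraries lay above all later ones. In STR/ort with 1 RUVg factor, Ckm had -0.51, adjusted p = 0.107, Xirp2 -0.18, adjusted p = 0.673 and Tpm1 -0.34, adjusted p = 0.323 at 1-week. The strain by time counts became 1 and 18 against C57BL/6 and 0 and 2 against MRL/MpJ.

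Fibroblast, cartilage and bone lists stood higher in STR/ort contralateral joints at 1-week under TMM scaling, while at 1-day their sums overlapped with those of C57BL/6. At 1-week, 8 of 9 fibroblast, 9 of 9 cartilage and 9 of 9 bone genes had higher calls against C57BL/6. Fibroblast genes summed to 17977 to 33825 CPM in STR/ort at 1-week, 14737 to 18237 in STR/ort at 0-day and 8193 to 11255 in C57BL/6 at 1-week. Bone genes summed to 4414 to 5963, 2925 to 3930.1 and 2032 to 2862 CPM in the same order, without overlap between STR/ort at 1-week and either. With 1 RUVg factor the higher calls at 1-week were 7 fibroblast, 3 cartilage (with 1 lower) and 3 bone. At 1-day against C57BL/6, 7 of 9 fibroblast and 2 of 9 cartilage genes were called higher, and of 9 bone genes 0 were called in edgeR and 0 in DESeq2, with 4 at an unadjusted p below 0.05. The sums at 1-day in STR/ort and C57BL/6 were 17162 to 26590.2 and 13233 to 18343 CPM for fibroblast, 3619.5 to 7314 and 3578 to 4919 for cartilage and 3141 to 5294 and 3391 to 4103 for bone genes, all with overlap, and STR/ort at 1-day also overlapped with its own 0-day sums in these 3 lists. In STR/ort, macrophage genes summed to 1694 to 2382 CPM at 0-day and to 2402 to 2955 and 2698 to 3376 in contralateral joints at 1-day and 1-week, above 0-day without overlap. Smooth muscle genes summed to 1289 to 1413, 861 to 1019 and 813 to 1107 CPM in the same order, below 0-day without overlap. Whether the joints carried a different mix of tissues or the muscle held less of these RNAs cannot be told apart here, and the part of the other lists was not tested. Slow muscle genes gave 5 lower and 0 higher calls of 14 at 1-week against C57BL/6, and the muscle glycolysis and phosphagen list gave 7 lower of 14. Under RUVg these became 0 lower for slow muscle in edgeR (2 at an unadjusted p below 0.05, and 5 lower in DESeq2 without the factor), and 2 higher and 0 lower for glycolysis.

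**Figure D3:**
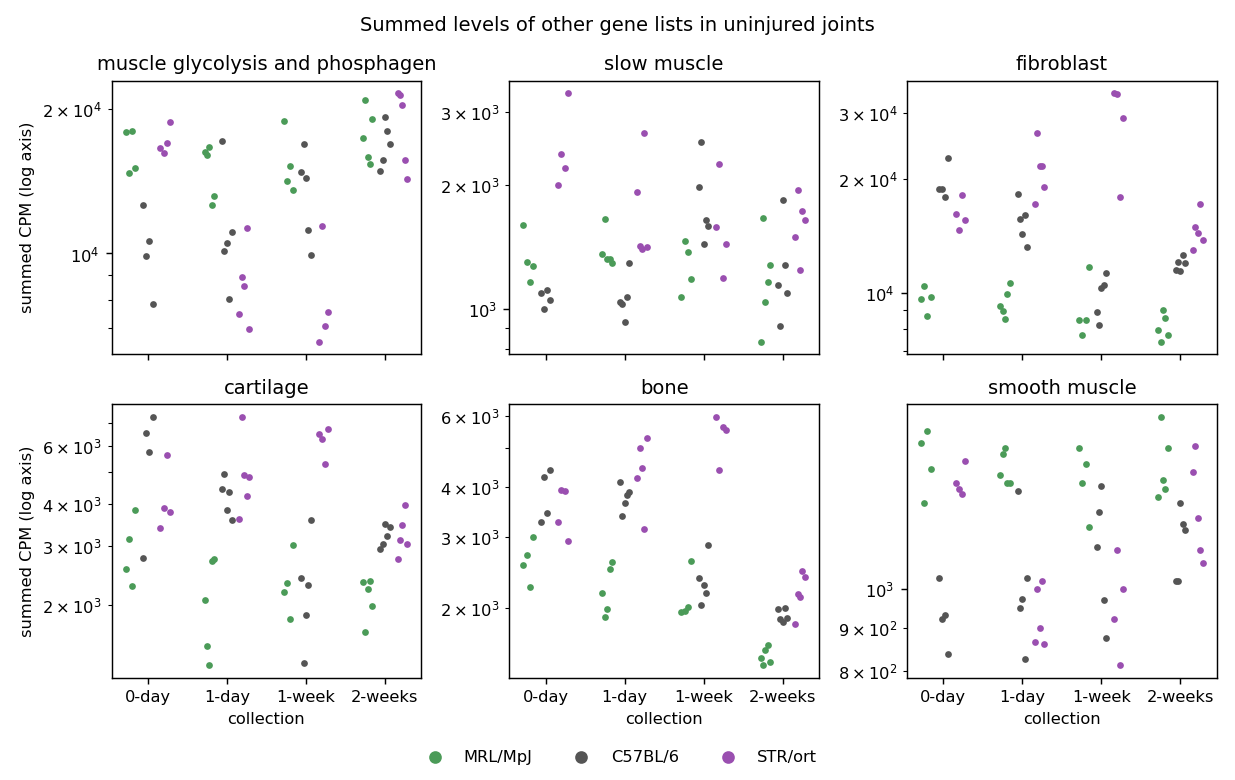
Summed CPM of 6 other gene lists (y axis, log scale) in each uninjured or contralateral joint by collection (x axis), coloured by strain. In STR/ort, the muscle glycolysis list lies at 16207 to 18800.0 CPM at 0-day and 6542 to 11423 at 1-week, while the fibroblast list lies at 14737 to 18237 and 17977 to 33825.

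At 2-weeks few of these genes were called between strains. The muscle score of contralateral joints was 11.13 ± 0.18 in MRL/MpJ, 10.97 ± 0.12 in C57BL/6 and 11.06 ± 0.28 in STR/ort (mean ± SD, n = 5 each), with overlap between all 3. STR/ort against C57BL/6 and C57BL/6 against MRL/MpJ gave 0 calls each in edgeR, with 5 and 8 members at an unadjusted p below 0.05, where 9.78% and 9.83% of all genes were called. DESeq2 called 1 and 0, and the count of STR/ort against C57BL/6 was 1 without C57BL/6 contralateral replicate 3 or 4 or STR/ort contralateral replicate 3, and 2 without STR/ort contralateral replicate 4 or 5. STR/ort against MRL/MpJ gave 2 lower calls, Ryr1 (-0.84 ± 0.15 SE, adjusted p = 4.81e-05) and Tcap (-0.59 ± 0.19 SE, adjusted p = 0.0181), where 5.86% of all genes were called lower. DESeq2 called 1 of them, and so did fits without MRL/MpJ contralateral replicate 1, 2 or 5 or STR/ort contralateral replicate 3, 4 or 5. Ryr1 was thus called lower in STR/ort than in MRL/MpJ at all 4 collections, with log2 fold changes of -0.85 at 0-day, -1.82 at 1-day, -1.94 at 1-week and -0.84 at 2-weeks under TMM scaling, in libraries that these comparisons do not share. Under RUVg with 1 factor it was not called at 1-day (-0.45, adjusted p = 0.129) or at 1-week (-0.70, adjusted p = 0.0803) but was at 2-weeks (-0.73, adjusted p = 1.77e-07), and Tcap was not called at 2-weeks, its change being under 1.5-fold (-0.44). At 2-weeks Ryr1 was at 2557, 2893, 2164, 2001 and 1748 CPM in STR/ort and 3811, 4870.2, 3482, 3747 and 4356 in MRL/MpJ contralateral joints, without overlap.

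Fast muscle RNA was lower in injured than in contralateral STR/ort joints at 1-day and 1-week. At 1-day the score was 9.09, 8.82, 9.21, 8.79 and 10.24 in injured and 9.8, 9.97, 9.97, 10.40 and 9.56 in contralateral STR/ort joints. Injured replicate 5, at 10.24, stood apart from the other 4, which lay below all contralateral joints. In edgeR, 20 of 35 genes were called lower and 0 higher, where 2.7% of all genes were called lower, with a median log2 fold change of -0.69 against -0.02 over all genes. The count depended on single libraries. It was 32 without injured replicate 5, 12 without injured replicate 3, 8 without injured replicate 1, 2 or 4 and 7 without contralateral replicate 4. With 1 RUVg factor it was 8, and with DESeq2 16.

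The 3 largest falls at 1-day in STR/ort were in Jph2 (junctophilin 2, which holds the surface membrane to the sarcoplasmic reticulum), Ldb3 (a Z-disc PDZ-LIM protein also called cypher) and Myoz3 (a calsarcin that binds alpha-actinin and calcineurin). Jph2 was at 46.7, 46.7, 61.9, 49.6 and 111 CPM in injured and 116, 129, 124, 169 and 89.8 in contralateral joints (-1.01 ± 0.21 SE, adjusted p = 0.00137). Ldb3 was at 139.8, 105, 145, 107 and 318 CPM in injured and 329, 321, 308, 429.9 and 223 in contralateral joints (-1.0 ± 0.23 SE, adjusted p = 0.00429), and Myoz3 at 26.6, 23.2, 32.8, 21.8 and 65.7 CPM in injured and 59.3, 67.6, 64.7, 83.6 and 58.7 in contralateral joints (-0.99 ± 0.22 SE, adjusted p = 0.00225). In all 3, injured replicates 1 to 4 lay below every contralateral joint and injured replicate 5 lay among them.

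The calls at 1-day in STR/ort came from every role. They held 5 of 8 thick filament genes (Myh4, the light chains Mylpf and Myl1, the fast binding protein Mybpc2 and Mylk2), 3 of 7 thin filament genes (Tpm1, Tnni2 and Tnnc2), 2 of 3 titin and M-band genes (Myom1 and Myom2, the cross-links of the thick filaments), 5 of 9 Z-disc genes, 4 of 7 calcium handling genes (Atp2a1, Casq1, Pvalb and Jph2) and Ckm. Myh4 was at 9599, 6733, 9891, 7087 and 16976 CPM in injured and 14935, 18878, 16216, 22701 and 13645 in contralateral joints (-0.80 ± 0.23 SE, adjusted p = 0.0249). Ckm was at 1717, 1493, 2422, 1467 and 3992 CPM in injured and 3108, 3585, 3622, 5603 and 2725 in contralateral joints (-0.77 ± 0.24 SE, adjusted p = 0.0326), and Actn3 at 892, 734, 1137, 794 and 1864 CPM in injured and 1625, 1895, 1967, 2797 and 1553 in contralateral joints (-0.88 ± 0.22 SE, adjusted p = 0.00836). In each of these 3 genes the highest injured library was replicate 5. Myh1 was not called: it was at 667, 798, 739.9, 572 and 1942 CPM in injured and 791, 971, 1362, 1035 and 512 in contralateral joints, which overlapped widely (-0.01 ± 0.26 SE, adjusted p = 0.992). Its injured replicate 5 lay above every contralateral joint, and the other injured libraries lay at 572 to 798 CPM. Myh2 was at 142, 210.4, 163, 192 and 1153 CPM in injured and 466, 380.5, 452, 833 and 351 in contralateral joints, with replicate 5 above every contralateral joint (-0.44 ± 0.38 SE, adjusted p = 0.55).

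At 1-week the score was 9.11, 9.28, 8.98, 9.83 and 8.71 in injured and 9.44, 10.26, 9.60 and 9.70 in contralateral STR/ort joints, which overlapped. In edgeR, 19 genes were called lower and 0 higher, where 3.54% of all genes were called lower, with a median of -0.66 against -0.03. The count was 7 without contralateral replicate 2, the highest of its group, and 13 with 1 RUVg factor. The 3 largest falls were in Acta1, Ldb3 and Mylpf (the phosphorylatable fast light chain). Acta1 was at 2494, 2809.6, 1951, 3744 and 1697 CPM in injured and 4656, 8363, 4467 and 4232 in contralateral joints (-1.10 ± 0.22 SE, adjusted p = 0.000404), with every injured library below every contralateral one. Ldb3 was at 129, 154, 109, 253 and 116 CPM in injured and 229, 462, 253 and 277 in contralateral joints (-1.01 ± 0.23 SE, adjusted p = 0.00157), and Mylpf at 926, 1073, 984, 1622 and 700.5 CPM in injured and 1867, 2799, 1632 and 1838 in contralateral joints (-0.94 ± 0.22 SE, adjusted p = 0.00207). Mylpf did not overlap between the joints, and in Ldb3 injured replicate 4 alone reached the contralateral range.

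By role, 5 of 8 thick filament, 5 of 7 thin filament, 2 of 3 titin and M-band, 2 of 9 Z-disc and 4 of 7 calcium handling genes were called lower at 1-week in STR/ort, besides Ckm (-0.86 ± 0.23 SE, adjusted p = 0.00602). Ckm was at 1658, 2120.2, 1500.1, 3057 and 1314 CPM in injured and 2672, 5232, 3229.9 and 2819.5 in contralateral joints. Tpm1 was at 3354, 3569, 3153, 5174 and 2857 CPM in injured and 4844, 8338, 4978 and 5594 in contralateral joints (-0.72 ± 0.21 SE, adjusted p = 0.0139). Xirp2 was not called, at 549, 547, 569.5, 909.6 and 395 CPM in injured and 644, 1197, 785 and 912 in contralateral joints (-0.58 ± 0.25 SE, adjusted p = 0.095). Des stood the other way, at 1308, 1235, 1013, 1373 and 685 CPM in injured and 624, 1057, 733 and 798 in contralateral joints (0.48 ± 0.18 SE, adjusted p = 0.0503), and was not called. With joints of the same replicate number paired as a block, 16 genes were called lower and 1 higher: Des was called higher (0.63, adjusted p = 0.000898), and Tnnt3, Myoz1 and Atp2a1 no longer exceeded the fold. The labels at 1-week do not say that joints of the same number came from the same animal.

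In C57BL/6 the changes were smaller in number. At 1-day, 3 genes were called lower, Casq1 (calsequestrin, the calcium store of the reticulum, -0.74 ± 0.22 SE, adjusted p = 0.0188), Pvalb (-0.63) and Myoz1 (-0.62), and 1 was called higher, Myh1 (0.76 ± 0.26 SE, adjusted p = 0.0407), where 5.6% of all genes were called. The median of the 35 was -0.37 against -0.02 over all genes. Myh1 was at 3002, 1802, 2587, 2458 and 1960.2 CPM in injured and 1744, 1324, 1959.8, 956 and 980.4 in contralateral joints, where injured replicate 2 alone lay below the highest contralateral joint. The injured values lay within the range of C57BL/6 at 0-day, and the contralateral values reached below that range. Myh4 went the other way without a call, at 13518, 12995, 19298, 11506 and 13346 CPM in injured and 37359.9, 17215, 18922, 14764 and 19637 in contralateral joints (-0.61 ± 0.23 SE, adjusted p = 0.0651). The count of 4 rested on single libraries: it was 0 to 2 without injured replicate 1, 2, 4 or 5 or contralateral replicate 1, 2 or 5 (0 without injured replicate 4, 1 without injured or contralateral replicate 1, and 2 without the rest), 10 without injured replicate 3 and 11 without contralateral replicate 4. With 1 RUVg factor it was 1 (Myh1, higher) and with DESeq2 1 (lower), and with the replicate block 2 (1 higher and 1 lower). In the same joints 5 of 9 fibroblast genes were called higher, with sums of 18832 to 28394 CPM in injured and 13233 to 18343 in contralateral joints, without overlap. Of 18 regeneration and denervation genes 8 were called higher and 1 lower, led by Chrng (the gamma subunit of the fetal acetylcholine receptor, 2.69 ± 0.79 SE), Ankrd1 (2.12 ± 0.40 SE) and Tnnt2 (cardiac troponin T, also of immature muscle, 2.06 ± 0.26 SE). Marrow neutrophil genes summed to 9721 to 12449 CPM in injured and 14066 to 17384 in contralateral joints, without overlap, with 0 of 9 called in edgeR and in DESeq2 and 9 of 9 at an unadjusted p below 0.05. Their part in the muscle values was not tested.

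At 1-week in C57BL/6, 7 genes were called lower and 0 higher, where 1.07% of all genes were called lower, with a median of -0.45 against -0.01. They were Myh1, Myh2, Mylk2, Acta1, Tpm2, Actn2 and Myot (myotilin of the Z-disc). Myh2 was at 403, 476, 469.9, 552 and 315 CPM in injured and 1467, 1907, 1438, 1164 and 983 in contralateral joints, with no overlap (-1.63 ± 0.25 SE, adjusted p = 2.52e-05). This was the largest negative difference of a member in any injury comparison. Actn2 had the next largest of the 7 (-1.16 ± 0.20 SE, adjusted p = 0.000112). Actn3, by contrast, was at 2881, 3782, 2304, 3550.0 and 1778 CPM in injured and 3309, 2888, 3270.1, 2359.5 and 1953 in contralateral joints (0.08 ± 0.21 SE, adjusted p = 0.892), and Myh4 at 18296, 23756, 15143, 20614 and 10798 CPM in injured and 26369.5, 29277, 27384, 16862 and 16887 in contralateral joints (-0.37 ± 0.23 SE, adjusted p = 0.381), both with overlap. The count of 7 was 3 without injured replicate 5 or contralateral replicate 1 or 3, 4 without injured replicate 1 or 3 or contralateral replicate 2, and 12 without contralateral replicate 5. The count was 3 with 1 RUVg factor. The mean muscle score of C57BL/6 was 10.29 ± 0.32 (SD) at 0-day. At 1-week it was 10.30 ± 0.36 in injured and 10.80 ± 0.36 in contralateral joints. Injured joints thus lay near 0-day on the mean score, and they were not tested against it.

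Other lists moved beside these 7 genes in C57BL/6 joints at 1-week. Of 14 slow muscle genes, 10 were called lower and 0 higher, led by Myl2 (the slow regulatory light chain, -2.22 ± 0.44 SE), Tnni1 (slow troponin I, -1.80 ± 0.42 SE) and Myh7 (the slow myosin heavy chain, -1.79 ± 0.53 SE). Their summed level was 1114 to 1216 CPM in injured and 1437 to 2543 in contralateral joints, without overlap, and 9 were called lower with 1 RUVg factor. In C57BL/6 at 0-day the summed level was 1001 to 1105 CPM, below both. The median log2 fold change of the slow list was -1.50, against -0.45 for the 35 fast genes. Fibroblast genes stood the other way, with 8 of 9 called higher, among them Col3a1 (a fibrillar collagen, 2.43 ± 0.21 SE), and sums of 20488 to 29863 CPM in injured and 8193 to 11255 in contralateral joints. Of 7 fat genes, 3 were called lower. Of 9 marrow neutrophil genes 0 were called in edgeR and 0 in DESeq2, with 1 at an unadjusted p below 0.05, and of 9 bone genes 1 was called lower. The part of these tissues in the lower fast muscle values of injured joints was not tested.

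In MRL/MpJ no member was called in edgeR or DESeq2 at 1-day or 1-week. At 1-day 14 members and at 1-week 3 had an unadjusted p below 0.05, where 2.02% and 3.13% of all genes were called, and the medians were -0.41 and -0.30 against 0.01 and -0.01 over all genes. The score at 1-day was 10.68, 10.51, 10.41, 10.40 and 11.11 in injured and 11.09, 11.23, 11.19, 10.84 and 10.88 in contralateral joints, with injured replicate 5 alone above the lowest contralateral joints. Without that library 2 members were called, and 1 was called at 1-week without injured replicate 3. Ckm was at 5638, 5318, 4677, 4929.9 and 8789 CPM in injured and 8476, 8319, 8912, 7254 and 7566 in contralateral joints at 1-day (-0.45 ± 0.23 SE, adjusted p = 0.361). Fibroblast genes moved up in these joints, with 2 of 9 called higher at 1-day and 8 at 1-week, among them Col3a1 (2.61 ± 0.23 SE at 1-week). Their sums were 10069 to 13206 CPM in injured and 8538 to 10596 in contralateral joints at 1-day, with overlap, and 16603 to 18921 and 7742 to 11682 at 1-week, without overlap. The regeneration and denervation list summed to 489.5 to 1021 CPM in injured and 337.5 to 413 in contralateral joints at 1-day, without overlap. Its calls there were Ankrd1 (3.58 ± 0.40 SE) and Chrna1 (0.975 ± 0.22 SE), both higher. The part of both lists in the muscle values was not tested.

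At 2-weeks no member was called in any strain in edgeR or DESeq2. Members at an unadjusted p below 0.05 numbered 0 in MRL/MpJ, 4 in C57BL/6 and 1 in STR/ort, where 1.16%, 2.95% and 4.66% of all genes were called. Median log2 fold changes were -0.01, 0.22 and -0.04. The score of STR/ort injured joints was 10.98, 11.20, 11.34, 10.77 and 10.78, against 11.28, 11.37, 11.10, 10.86 and 10.69 in the contralateral joints, which overlapped. In each strain 7 of 9 fibroblast genes were called higher in injured joints at 2-weeks.

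Whether injury acted differently on these genes between strains was tested as an interaction at each time. In all 9 tests 0 members were called in edgeR and 0 in DESeq2, and between 0 and 4 members had an unadjusted p below 0.05. Of all genes, 2.66% were called for STR/ort against C57BL/6 at 1-day, 0.491% at 1-week and 0.0462% at 2-weeks. For STR/ort against MRL/MpJ these shares were 0.162%, 0.884% and 0.451%, and for C57BL/6 against MRL/MpJ 0.318%, 0% and 0%. With the replicate block, Des alone was called at 1-week, for STR/ort against C57BL/6 (0.80, adjusted p = 0.0141) and against MRL/MpJ (0.71, adjusted p = 0.034), towards a rise in STR/ort. This block paired the 1-week joints of every strain by replicate number, which the labels do not tie to animals. Without STR/ort injured replicate 5, the test of STR/ort against C57BL/6 at 1-day called 6 members.

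**Figure D4:**
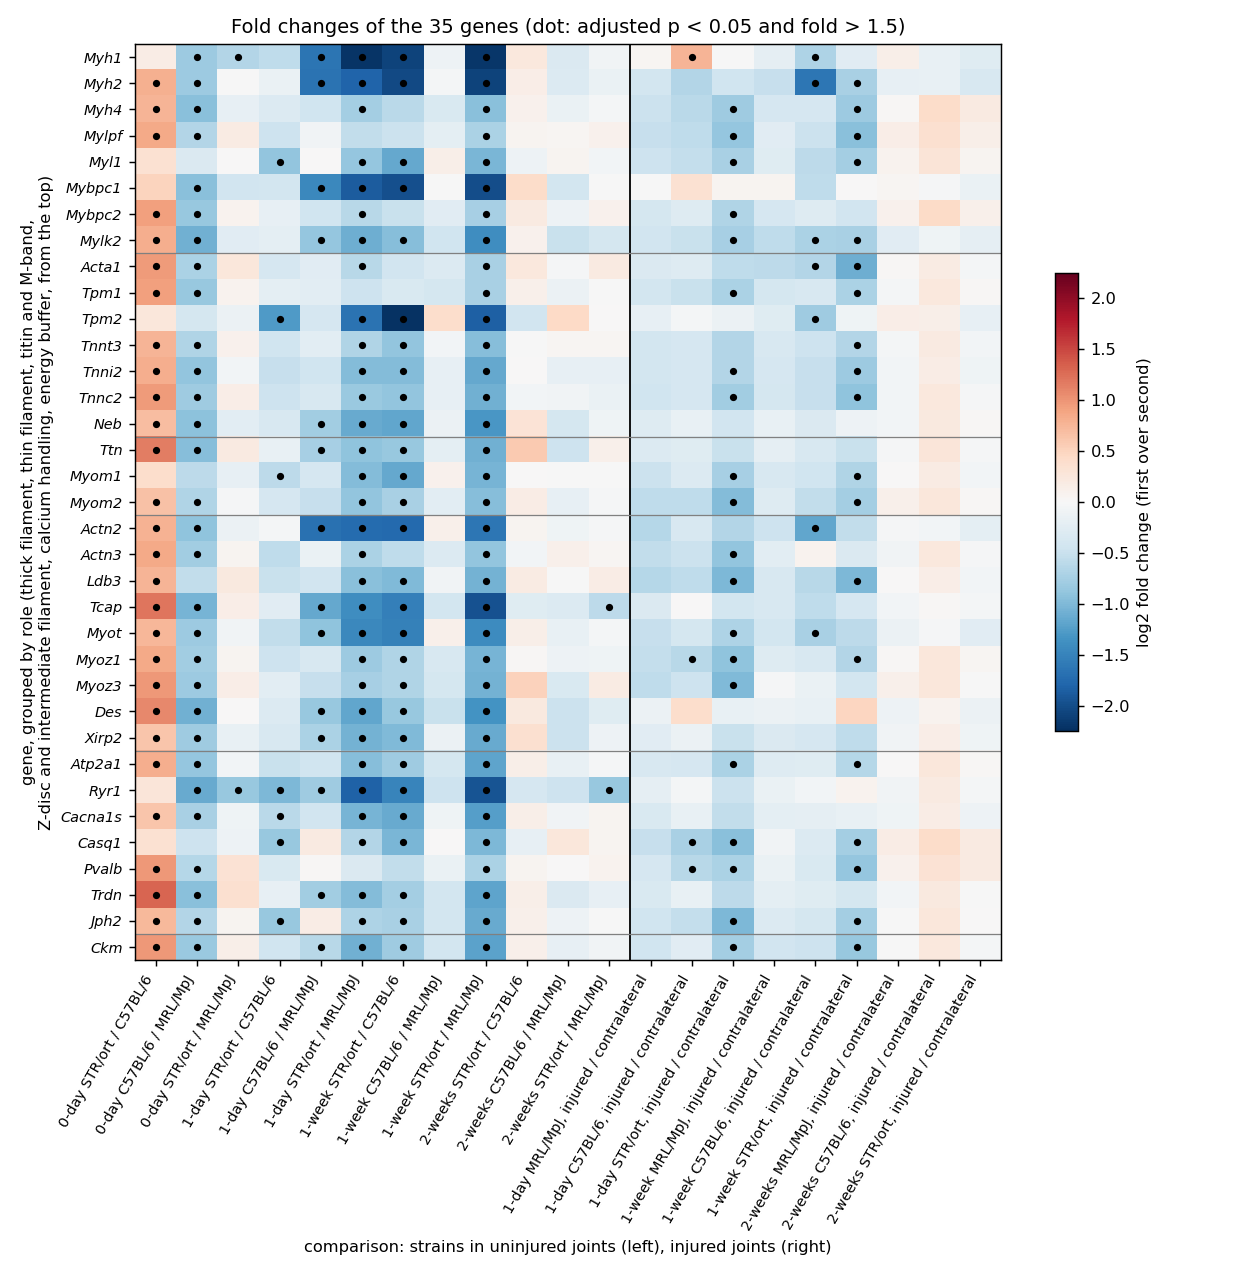
Log2 fold changes (colour) of the 35 genes (rows, by role) in 12 strain comparisons of uninjured joints (left) and 9 injury comparisons (right), with a dot where the adjusted p was below 0.05 and the fold above 1.5. Columns of STR/ort against C57BL/6 turn from red at 0-day, with 28 higher calls, to blue at 1-week under TMM scaling (median 0.00 with 1 RUVg factor), with 28 lower calls.

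Ratios between fibre type isoforms were compared between joints and, at 0-day, between strains, and no difference passed the adjustment. A log2 ratio of 2 members, taken on counts plus 0.5, does not depend on how a library is scaled. In C57BL/6 at 1-day, log2 Myh1/Myh4 was -2.17, -2.85, -2.90, -2.23 and -2.77 in injured and -4.42, -3.70, -3.27, -3.95 and -4.32 in contralateral joints, with no overlap (difference 1.35, exact two-sided permutation p = 0.00794, adjusted p = 0.0952). At 1-week in C57BL/6, log2 Myh2/Myh4 was -5.50, -5.64, -5.01, -5.22 and -5.10 in injured and -4.17, -3.94, -4.25, -3.86 and -4.10 in contralateral joints (difference -1.23, exact two-sided permutation p = 0.00794, adjusted p = 0.0952). Log2 Actn2/Actn3 was -3.37, -3.32, -3.17, -3.22 and -2.54 in injured and -2.10, -1.49, -2.10, -2.0 and -2.0 in contralateral joints (difference -1.19, exact two-sided permutation p = 0.00794, adjusted p = 0.0952). These were the 3 of 36 ratio comparisons without overlap, and each reached the smallest p that 5 against 5 libraries can give, with adjusted p-values of 0.0952 at the lowest of the 36. Mean log2 Myh1/Myh4 of C57BL/6 was -2.81 at 0-day, against -2.58 in injured and -3.93 in contralateral joints at 1-day. At 0-day the means were -4.56 for Myh2/Myh4 and -2.61 for Actn2/Actn3, each between those of the joints at 1-week. Ratios of injured joints were not tested against 0-day.

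Smaller differences of the ratios overlapped between joints. At 1-day, the mean log2 Myh1/Myh4 of injured joints exceeded that of contralateral joints by 0.58 in MRL/MpJ (exact permutation p = 0.0238, adjusted p = 0.143) and by 0.77 in STR/ort (exact permutation p = 0.0317, adjusted p = 0.163). At 2-weeks, log2 Myh2/Myh4 differed by -0.57 in C57BL/6 and by -0.59 in STR/ort (exact permutation p = 0.0238 and 0.0159, both 0.143 after adjustment). Within animals, whose joints pair at 2-weeks, log2 Myh2/Myh4 was lower in the injured joint in 5 of 5 C57BL/6 mice (mean difference -0.57 ± 0.23 SD), 4 of 5 STR/ort mice (-0.59 ± 0.50) and 5 of 5 MRL/MpJ mice (-0.23 ± 0.11). Exact sign-flip permutation tests over the animals gave p = 0.0625, 0.125 and 0.0625, where 0.0625 is the smallest that 5 pairs can give, and 0.188 each after adjustment over the 9 ratios of that time. At 0-day no ratio differed between strains by an unadjusted p below 0.05, with a smallest possible p of 0.0286 for 4 against 4.

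**Figure D5:**
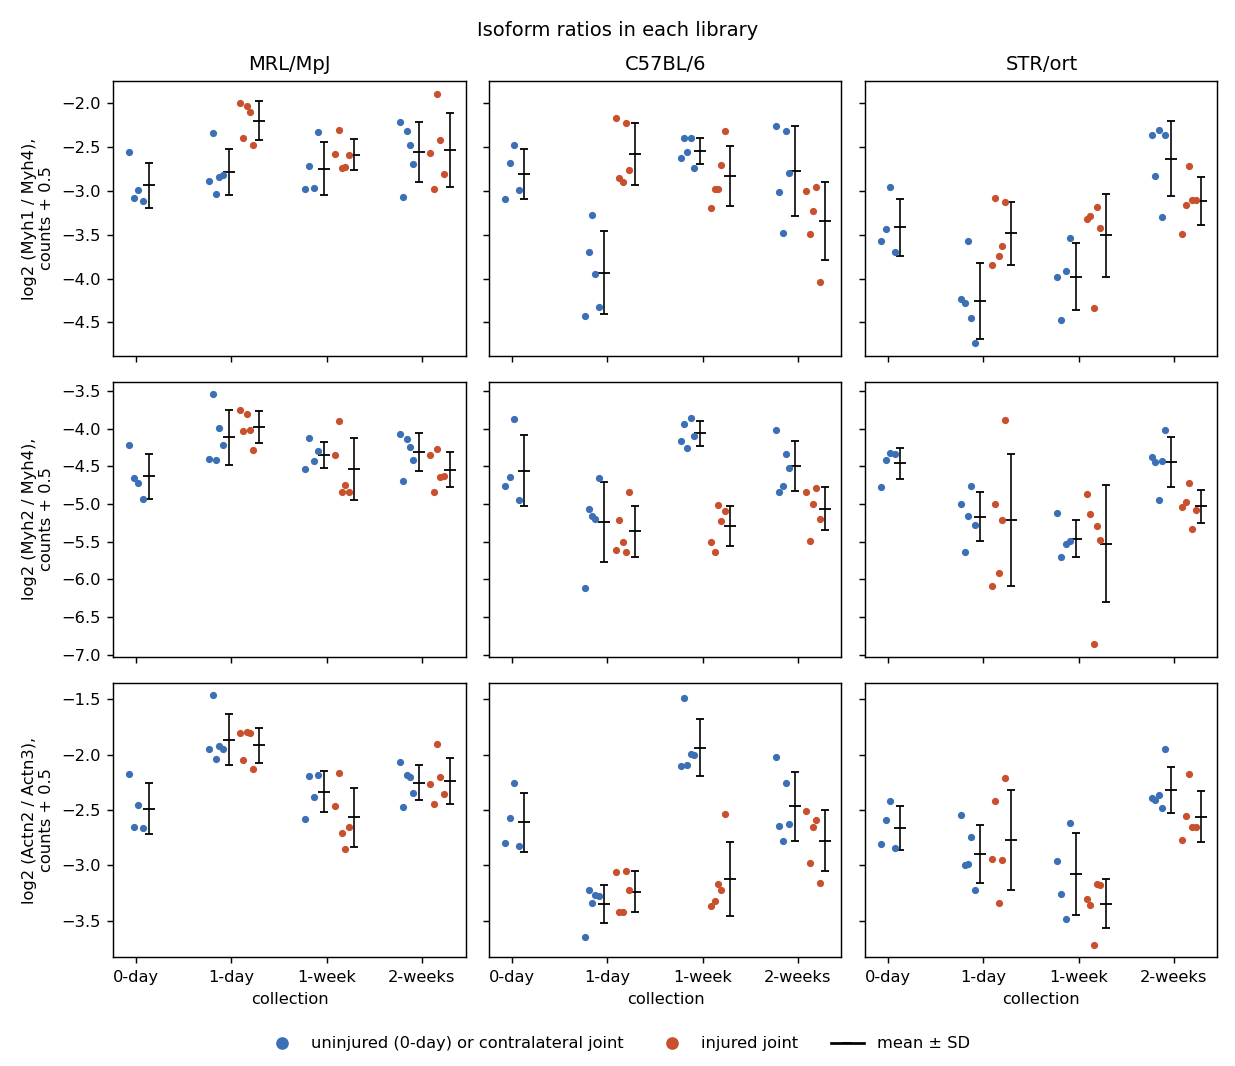
Log2 ratios of counts of Myh1 to Myh4, Myh2 to Myh4 and Actn2 to Actn3 (rows) in each library by strain and collection, with blue points for uninjured or contralateral joints, red points for injured joints and black bars for the mean ± SD. In C57BL/6, Myh1/Myh4 at 1-day and Myh2/Myh4 and Actn2/Actn3 at 1-week separate injured from contralateral joints.

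Other members also moved apart from the rest between groups. As a description over the 21 group means, the deviation of a member from the mean of the others ranged widest in Ryr1 (1.72 log2 units), Myh1 (1.71), Des (1.59) and Tnnc2 (1.51), and least in the M-band genes Myom2 (0.39) and Myom1 (0.46). These ranges span the batch label of the 2-weeks libraries. Tnnc2 lay at -0.94 to -0.73 around its own mean in the 6 groups at 2-weeks and at 0.12 to 0.57 in the 15 others, where its range was 0.45. Over those 15 groups the range was 1.71 in Myh1, 1.49 in Myh2, 1.35 in Mybpc1, 1.26 in Des and 1.07 in Ryr1. Ryr1 was lowest against the others in STR/ort at 0-day and highest in MRL/MpJ contralateral joints at 2-weeks. Des was highest against the others in STR/ort injured joints at 1-week, where 5 of 10 smooth muscle genes were also called higher, and their part in the level of Des was not tested. Tpm2 was highest against the others in C57BL/6 contralateral joints at 1-week, and Tpm1, its partner on the thin filament, in STR/ort contralateral joints at 1-week.

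Other muscle genes showed how far the fall in STR/ort injured joints reached at 1-day. Of 14 genes of muscle glycolysis and the phosphagen system, 8 were called lower and 0 higher, led by Pgam2 (muscle phosphoglycerate mutase, -0.95 ± 0.21 SE), Eno3 (muscle enolase, -0.94 ± 0.22 SE) and Ampd1 (muscle AMP deaminase, -0.92 ± 0.23 SE). Of 37 other sarcomere and triad genes, 11 were called lower, among them Cacnb1 (a subunit of the calcium channel of the T-tubule, -1.03 ± 0.21 SE) and Tmem38a (a potassium channel of the reticulum, -1.0 ± 0.25 SE). In the same list 4 were called higher, led by Asb5 (1.21 ± 0.26 SE), Flnc (filamin C, a Z-disc actin cross-linker, 1.16 ± 0.29 SE) and Klhl40 (a nebulin-stabilising protein, 0.89 ± 0.29 SE). Slow muscle genes gave 1 lower call of 14, Csrp3 (muscle LIM protein, -1.27 ± 0.26 SE). The regeneration and denervation list gave 3 higher calls of 18, Ankrd1 (a stretch-induced ankyrin repeat protein, 2.27 ± 0.38 SE), Chrna1 (acetylcholine receptor alpha, 0.98 ± 0.23 SE) and Myod1 (0.74 ± 0.23 SE), and 1 lower, Actc1 (cardiac actin, -1.57 ± 0.39 SE). Under RUVg with 1 factor the lower calls were 5 for glycolysis and 5 for the other sarcomere and triad genes.

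At 1-week in STR/ort injured joints the same lists gave 7 lower calls of 14 for glycolysis, 5 lower and 0 higher of 37 for sarcomere and triad genes, 6 lower and 1 higher of 14 for slow muscle, and 10 higher and 1 lower of 18 for regeneration and denervation. Under RUVg the sarcomere and triad list gave 2 lower and 1 higher. Fibroblast genes moved up beside the muscle genes, with 6 of 9 called higher and a summed level of 43512 to 69545 CPM in injured against 17977 to 33825 in contralateral joints. Lists of other tissues moved down with the muscle genes. Of 9 marrow neutrophil genes, 5 were called lower (Prtn3, Ly6g, Elane, Camp and S100a8, between -0.71 and -0.60), with sums of 8135 to 11609 CPM in injured and 13296 to 17802 in contralateral joints, without overlap. That count was 3 with RLE scaling or DESeq2 and 6 with 1 RUVg factor. Of 9 bone genes, 4 were called lower, Bglap (osteocalcin, -1.31 ± 0.20 SE), Sost, Sp7 and Phex, with sums of 3846 to 4740.2 and 4414 to 5963 CPM. Of 8 erythroid genes 2 and of 7 fat genes 2 were called lower. At 1-day in STR/ort no fibroblast gene was called, with sums of 18151 to 21319 and 17162 to 26590.2 CPM, and 2 of 9 had an unadjusted p below 0.05. The fat list gave 4 lower calls of 7 at 1-day, led by Lep (-0.96 ± 0.20 SE). The part of these other tissues in the muscle values was not tested.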

How the data were processed

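RNA-seq counts per gene of 100 libraries were used as deposited. Per the paper's methods and the submitters' processing notes, the authors checked reads with FastQC, aligned them to mm10, the C57BL/6J reference, with TopHat2 2.0.11 and counted reads per RefSeq gene with featureCounts, then kept genes with at least 2 counts in at least 5 libraries, normalised with RUVSeq on 25 housekeeping genes and tested with edgeR. The table had 17313 rows. 3 repeated rows were dropped and 17310 genes were tested, with 0 removed by the same filter. Totals ran from 6182016 to 20986027 counts per library (median 10582591.5), and none of 190 pairs of libraries within a group was identical.

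Groups came from the labels. Each comparison was fitted in edgeR 4.0.16 (R 4.3.3) with TMM factors and the quasi-likelihood F test, with p-values adjusted by Benjamini-Hochberg over 17310 genes. A gene was called at an adjusted p below 0.05 and a fold above 1.5, and SE is the log2 fold change divided by the square root of F. Log2 CPM levels took a prior count of 2. The labels do not state that replicates came from separate animals in every group, and p-values then measure the spread between these samples only. Ratios took counts plus 0.5 and an exact two-sided permutation test, adjusted over 36 comparisons. Scripts were tested on simulated data. RUVg with 1 factor, RLE factors, TMM factors without the muscle genes, filterByExpr, DESeq2 1.42.0, a replicate block and leaving out each library were alternatives. Plots were drawn with matplotlib 3.10.9 (Python 3.11.15).

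The 35 genes and the other lists were chosen with earlier results of these data known. Values per library are given for the 3 called genes with the largest fold change in the 0-day comparison and the 2 injury comparisons with most calls, and for Myh1, Myh2, Myh4, Actn3, Ckm, Xirp2 and Tpm1. Per-library values of Ryr1 at 2-weeks and of Des at 1-week were added after they were seen. Of the other lists, at most 3 genes per direction are named, except that all called marrow neutrophil and bone genes are named in STR/ort injured joints at 1-week. Labels at 2-weeks tie the injured and contralateral joint to 1 animal, so the block pairs joints there. At 1-day and 1-week the joints share a number only, and the block paired them by it in every strain. All 4 correlations of their deviations in STR/ort at 1-week lay between 0.102 and 0.231. Such correlations cannot show pairing, since joints of 1 animal at 2-weeks gave -0.161 to 0.076 in MRL/MpJ. Block results at 1-day and 1-week thus rest on pairs that the labels do not give. Fits of 0-day, 1-day and 1-week joints together were added after the data were seen.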

Additional observations from a re-analysis of the deposited data

Results flagged for a closer look

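Single libraries stood far from the others of their group (Dixon's criterion at 95%) in 31 of 252 group values tested, where chance gives about 1 in 20. Most came from few libraries, and the members move together, so these are not separate findings.

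In STR/ort injured joints at 1-day, replicate 5 stood high, with 1942 CPM of Myh1 (others 572 to 798), 1153 CPM of Myh2 (others 142 to 210.4) and 6911 CPM of Tpm1 (others 2902 to 3957), and also with 111 CPM of Jph2 (others 46.7 to 61.9), 318 CPM of Ldb3 (others 105 to 145) and 65.7 CPM of Myoz3 (others 21.8 to 32.8). The contralateral replicate 4 of the same group stood high with 833 CPM of Myh2 (others 351 to 466) and 8674 CPM of Tpm1 (others 5658 to 6478). At 1-week, STR/ort contralateral replicate 2 had 8363 CPM of Acta1 (others 4232 to 4656).

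In MRL/MpJ injured joints at 1-day, replicate 5 had 32771 CPM of Myh4 (others 16924 to 19965), 8789 CPM of Ckm (others 4677 to 5638), 2207 CPM of Xirp2 (others 1386 to 1544) and 10126 CPM of Tpm1 (others 5503 to 6774). Contralateral replicate 2 had 6091 CPM of Myh1 (others 3663 to 4276) and 2637 CPM of Myh2 (others 1484 to 1650.3). At 2-weeks, MRL/MpJ injured replicate 4 had 43287 CPM of Myh4 (others 20120.2 to 24985), 4768 CPM of Actn3 (others 2296 to 2792), 10327 CPM of Ckm (others 4715 to 5649) and 10576 CPM of Tpm1 (others 5209 to 6304).

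In C57BL/6 injured joints at 1-day, replicate 3 had a muscle score of 10.54 (others 9.89 to 10.08), with 19298 CPM of Myh4 (others 11506 to 13518), 2962 CPM of Actn3 (others 1707 to 1984), 5568 CPM of Ckm (others 3740.0 to 4219) and 1492 CPM of Xirp2 (others 928 to 1062). Contralateral replicate 1 had 37359.9 CPM of Myh4 (others 14764 to 19637).

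Log2 ratios of Actn2 to Actn3 stood apart in MRL/MpJ contralateral replicate 2 at 1-day at -1.46 (others -2.04 to -1.92), in C57BL/6 contralateral replicate 1 at 1-day at -3.65 (others -3.34 to -3.22), in C57BL/6 injured replicate 5 at 1-week at -2.54 (others -3.37 to -3.17), in C57BL/6 contralateral replicate 2 at 1-week at -1.49 (others -2.10 to -2.0) and in STR/ort contralateral replicate 5 at 2-weeks at -1.95 (others -2.48 to -2.36). Log2 Myh1/Myh4 stood apart in STR/ort injured replicate 3 at 1-week at -4.33 (others -3.42 to -3.19).

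The change of uninjured joints from 0-day to the contralateral joints differed between strains by a test of the difference in edgeR. It was called in 34 of 35 members for STR/ort against C57BL/6 at 1-day and in 35 at 1-week, and in 28 and 33 for STR/ort against MRL/MpJ. These counts were 1, 18, 0 and 2 with 1 RUVg factor.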

How the results depend on the processing

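Scaling by 1 housekeeping factor (RUVg) moved most counts of called genes. They became 18 and 18 at 0-day (STR/ort and MRL/MpJ, each against C57BL/6), 1 for the C57BL/6 injury at 1-day, 8 for STR/ort at 1-day and 3 for C57BL/6 at 1-week. For contralateral joints they became 1 (STR/ort against C57BL/6), 4 (STR/ort against MRL/MpJ) and 6 (C57BL/6 against MRL/MpJ) at 1-day, 4 and 4 for STR/ort at 1-week, and 1 in each of the 3 comparisons at 2-weeks. For strain by time they became 1, 0 and 1 at 1-day and 18, 2 and 2 at 1-week, in the same order, and within strains 1 (C57BL/6) and 0 (STR/ort) at 1-day and 3 (C57BL/6) and 8 (STR/ort) at 1-week. The cause was not tested.

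RLE factors, TMM factors without the muscle genes, filterByExpr and DESeq2 each gave 1 call at 2-weeks for STR/ort against C57BL/6 and 1 for STR/ort against MRL/MpJ. DESeq2 gave 1 for the C57BL/6 injury at 1-day and 2 for the strain by time of C57BL/6 against MRL/MpJ at 1-week. With the replicate block the counts were 2 (C57BL/6 at 1-day) and 1 (MRL/MpJ at 1-week), and 1 each for the differences of STR/ort from C57BL/6 and from MRL/MpJ at 1-week. The block moved no count at 2-weeks, where joints pair by animal. At 1-day, the pairing correlations ran from -0.131 to 0.245.

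Leaving out 1 library at a time gave 1 to 2 calls for STR/ort against MRL/MpJ at 0-day, 0 to 2 for the injury in MRL/MpJ, 0 to 11 in C57BL/6 and 7 to 32 in STR/ort at 1-day, 0 to 1, 3 to 12 and 7 to 25 in the same order at 1-week, 0 to 6 for the injury difference of STR/ort against C57BL/6 at 1-day, 5 to 15 for their contralateral joints at 1-day, and at 2-weeks 0 to 2 for STR/ort against C57BL/6 and 1 to 2 against MRL/MpJ. It gave 18 to 31 for the strain by time of STR/ort against MRL/MpJ at 1-day, 0 to 2 for C57BL/6 against MRL/MpJ at 1-week and 2 to 16 within C57BL/6 at 1-week. Other counts stayed within 1.5 times their value. The lowest count of a member in any library was 211, in Myoz3.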
